A study of Mus musculus with 42 samples.

Results

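Glutathione transferases and UDP-glucuronosyltransferases were followed across 3 tissues, 2 genotypes and 2 ages of mice. A gene was counted among them when its name on the array was Gst with a class letter and a digit, Mgst with a digit, or Ugt with a digit, and 37 of the 27745 gene names on the array met this rule. These were 23 glutathione transferases (4 alpha, 7 mu, 1 pi, 4 theta, 2 omega, 1 zeta, 1 kappa and 3 microsomal) and 14 genes of the UGT superfamily (3 UGT1, 8 UGT2, 2 UGT3 and 1 UGT8). Each was read from 1 probe, the brightest of its probes over all arrays, and 13 of the 37 had more than 1 probe. The probes of 6 genes are annotated to transcripts of another gene as well, so that their signals may be mixed: Gsta1 with Gsta2 in both directions, Gstp1 with Gstp2, the UGT1 locus probe named Ugt1a@ with several first exons of that locus, Ugt2b37 with Ugt2b36, and Ugt2b38 with Ugt2b37 and Ugt2b5.

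Liver, skeletal muscle and visceral fat RNA of female C57BL/6 mice was hybridised to 42 one-colour whole-genome arrays, 14 per tissue. Akt1+/- mice, which lack 1 copy of the kinase gene Akt1 in every cell from the germline on, were compared with wild-type littermates. In each tissue there were 3 arrays per genotype from mice of 8 weeks and 4 per genotype from older mice, labelled as 35 weeks although the methods of the study give a somewhat older age. The study concerns lifespan, and the arrays address how the loss of 1 Akt1 copy changes these tissues in young and in middle-aged mice. The mutant line had been backcrossed to C57BL/6 for several generations. Nothing in the labels says that the arrays of a group came from separate mice, and p-values therefore measure the spread between these samples.

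Glutathione transferases join the tripeptide glutathione to electrophilic compounds, which makes them more soluble and less reactive, and several also reduce organic peroxides. UDP-glucuronosyltransferases of the UGT1 and UGT2 families join glucuronic acid to bilirubin, steroids, bile acids and drugs in the endoplasmic reticulum, mostly in liver, gut and kidney. The UGT3 enzymes use other sugars, and Ugt8a makes galactosylceramide, the main glycolipid of myelin. Many of these genes are known targets of the transcription factor Nrf2, which binds antioxidant response elements, and of the xenobiotic receptors.

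The promoters of the 5 genes that differed between the genotypes in liver are shown first, since these genes moved in the same direction. The sequences are those of RefSeq on GRCm38.p6, from 250 bases before to 50 bases after the annotated start of transcription, written 5′ to 3′ on the strand of the gene; capitals mark a match to the core of the antioxidant response element. The windows are chr1:21240335-21240634 (+) for Gsta3, chr10:75797682-75797981 (-) for Gstt1, chr10:75781373-75781672 (-) for Gstt3, chr3:107953417-107953716 (-) for Gstm6 and chr15:9279579-9279878 (+) for Ugt3a1.
Gsta3: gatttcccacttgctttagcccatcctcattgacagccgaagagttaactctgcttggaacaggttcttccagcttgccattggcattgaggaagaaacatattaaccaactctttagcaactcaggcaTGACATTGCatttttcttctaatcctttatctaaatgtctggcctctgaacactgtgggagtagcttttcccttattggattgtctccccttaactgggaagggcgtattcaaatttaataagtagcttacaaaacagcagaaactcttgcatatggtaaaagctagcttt
Gstt1: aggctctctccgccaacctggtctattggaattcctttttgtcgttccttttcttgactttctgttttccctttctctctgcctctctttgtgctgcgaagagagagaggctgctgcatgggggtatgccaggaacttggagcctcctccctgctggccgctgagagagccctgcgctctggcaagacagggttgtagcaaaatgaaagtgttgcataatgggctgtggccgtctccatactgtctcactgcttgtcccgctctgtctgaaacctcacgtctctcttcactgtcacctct
Gstt3: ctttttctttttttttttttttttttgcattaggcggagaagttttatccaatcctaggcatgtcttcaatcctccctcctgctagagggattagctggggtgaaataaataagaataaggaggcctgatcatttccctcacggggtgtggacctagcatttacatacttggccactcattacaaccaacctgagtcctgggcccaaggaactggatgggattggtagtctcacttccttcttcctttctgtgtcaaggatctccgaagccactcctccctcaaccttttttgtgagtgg
Gstm6: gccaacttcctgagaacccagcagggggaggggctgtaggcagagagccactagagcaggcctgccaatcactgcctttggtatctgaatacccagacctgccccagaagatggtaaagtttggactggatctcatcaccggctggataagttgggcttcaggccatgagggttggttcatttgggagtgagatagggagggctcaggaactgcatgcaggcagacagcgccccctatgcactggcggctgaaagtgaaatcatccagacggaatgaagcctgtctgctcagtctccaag
Ugt3a1: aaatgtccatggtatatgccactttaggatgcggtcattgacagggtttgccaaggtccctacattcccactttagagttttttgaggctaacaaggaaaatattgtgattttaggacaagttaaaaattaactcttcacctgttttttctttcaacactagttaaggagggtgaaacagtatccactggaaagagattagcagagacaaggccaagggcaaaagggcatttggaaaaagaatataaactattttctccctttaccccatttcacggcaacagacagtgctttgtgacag
A promoter entry was found for 33 of the 37 genes, with 42 entries in all, and 3 motifs were searched on both strands. The antioxidant response element core (TGACNNNGC) was matched in 4 of the 42 windows, 9.52%, and in 12.4% of all 32851 RefSeq promoter windows; the 4 genes were Gsta3, Gstm5, Gstm7 and Mgst1. In Gsta3 the match lay 121 bases before the start. The core of the xenobiotic response element (GCGTG), bound by the aryl hydrocarbon receptor, was matched in 8 windows (19.0%, against 32.4% of all windows), and it overlapped the antioxidant match in Gstm5. The forkhead box O motif (GTAAACA) was matched in 3 windows (7.14%, against 3.65%), those of Ugt2b35, Ugt2b37 and Ugt2b38. In the windows of Gstt1, Gstt3, Gstm6 and Ugt3a1 none of these letters were found, which says nothing on the factors themselves.

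Levels are given as log2 of the scanner's processed signal relative to the 75th percentile of each array, so that 0 is the signal which 75% of the probes do not exceed and each unit is a doubling. The scanner marked 56.5% to 68.6% of the probes as well above background on each array, and a gene was tested in a tissue when at least 3 arrays of 1 group carried this mark. Akt1 itself was lower in Akt1+/- than in wild-type samples in all 6 comparisons of tissue and age, by 1.40-fold to 1.64-fold and with no overlap; the exact permutation test gave 0.1 at 8 weeks and 0.0286 at 35 weeks, the smallest p each design allows. The labelled tissues carried their own markers. Summed as linear signal relative to the 75th percentile, the hepatocyte markers Alb, Ttr, Apoa1 and Tat reached 1196 to 1662 in liver. The same sum was 0.356 to 3.88 on 13 muscle arrays but 38.9 on 1 Akt1+/- muscle array (8 weeks, replicate 3). In fat it was 0.790 to 4.45 on 13 arrays and 8.71 on 1 wild-type array (8 weeks, replicate 1). Values without these 2 arrays are given for some of the results, and further calls that were lost without 1 of them are named as such. In these bulk samples fewer cells of a type and less RNA per cell cannot be told apart.

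The UGT genes were for the most part liver genes, whereas nearly all glutathione transferases were measured in every tissue. Of the 23 glutathione transferases, 20 were well above background on all 14 arrays of all 3 tissues, against 1 of the 14 UGT genes, the locus probe Ugt1a@. In a fit over the 42 arrays, 36 of the 37 genes differed between liver and muscle (85.8% of all genes did), 37 between liver and fat (86.2%) and 31 between muscle and fat (87.6%), so that the counts themselves are close to those of the array as a whole. The direction was uneven: 31 of the 37 were higher in liver than in muscle (40.5% of all genes), 31 were higher in liver than in fat (44.2%), and 12 were higher in muscle than in fat (43.9%). Some of these calls compare readings at background. Ugt8a, counted as higher in liver than in fat, was well above background on no liver array. Between muscle and fat, Gsta2, Ugt1a1 and Ugt2a1 were well above background on no array of either tissue and Ugt2b1 and Ugt2b5 on 1 of each; without these 5, 26 genes differed and 7 were higher in muscle. With each gene that was not measured in the lower tissue set at its bound (and Ugt8a at 0 between liver and fat, where it has none), the median log2 difference of the 14 UGT genes was at least 8.82 between liver and muscle and at least 8.47 between liver and fat. That of the 23 glutathione transferases was 1.64 and 1.46.

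Most of the UGT2 genes, whose enzymes conjugate steroids and bile acids, were at background on nearly all muscle and fat arrays. Their folds are bounds that depend on the liver signal of each probe, so they do not rank the genes. Ugt2b37 measured 5.66 to 6.94 in liver. Its signal was at least 2302-fold higher there than in muscle and at least 3369-fold higher than in fat. For these bounds the lowest signal still well above background was set in place of arrays with less. These bounds hold on the scale used here: background correction by normexp with an added offset, which compresses dim signals, gave differences of 8.34 and 8.41 in log2 units. The same bound was 1715-fold and 2659-fold for Ugt2b38, 1357-fold and 2131-fold for Ugt2b5, and 1112-fold and 1796-fold for Ugt2a3. Without the 2 arrays with a high hepatocyte marker sum the bounds were 2704-fold and 3516-fold for Ugt2b37, 1961-fold and 2733-fold for Ugt2b38, and 1558-fold and 2172-fold for Ugt2b5. Ugt2b37 was well above background on 1 muscle array, at -2.56, the Akt1+/- array with the high hepatocyte marker sum, while the other muscle arrays lay between -7.58 and -5.81. In fat it was well above background on 2 wild-type arrays of 8 weeks, replicate 1 at -4.56 and replicate 2 at -5.06. Ugt2b1 had its single muscle reading elsewhere, at -2.11 on wild-type replicate 1 of 8 weeks. How far RNA of liver cells carries these readings was not tested. Gsta2, Ugt1a1, the main bilirubin transferase, and Ugt2a1 were well above background on all 14 liver arrays and on no array of muscle or fat; without the 2 arrays above, Ugt2b38 and Ugt2b5 joined them.

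Of the 37 genes, 30 had their highest mean in liver, 3 in muscle and 4 in fat. Mgst2, a membrane enzyme that can make leukotriene C4, was highest in fat, where it measured 2.55 to 4.02, against -3.12 to -2.13 in liver and -2.25 to -1.25 in muscle. The ranges of fat and of the other tissues did not meet, and the level in fat was 69.1-fold that of liver (adjusted p = 4.47e-31, limma) and 34.8-fold that of muscle (adjusted p = 9.99e-29). Mgst3, a peroxidase of the same membrane family, was highest in muscle, 13.1-fold above liver and 2.34-fold above fat. Gstm5 was also highest in muscle, 10.7-fold above liver and 2.68-fold above fat. Gstm2 was highest in fat, but only 1.93-fold above liver and 1.20-fold above muscle, and its muscle and fat arrays overlapped. Gsto2, an omega enzyme that reduces dehydroascorbate, was 1.74-fold higher in fat than in liver, also with overlap. Gstt4 was well above background on all 14 fat arrays, on none in liver and on 1 in muscle, at least 4.47-fold above liver and 4.75-fold above muscle. Ugt8a was well above background on 11 of 14 muscle arrays and had a mean at least 1.67-fold above that of liver, though the arrays of both tissues overlapped.

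Fat stood between liver and muscle for Gsta3, Gsta1, Ugt1a@ and Mgst1. Gsta3, whose product conjugates aflatoxin epoxide in mouse liver, measured 7.15 to 8.66 in liver, 4.65 to 6.38 in fat and -3.14 to -0.03 in muscle, and the 3 ranges did not meet. Its level in liver was 4.51-fold that of fat and 669-fold that of muscle. Gsta1 was 11.4-fold and 161-fold higher in liver than in fat and muscle, and Ugt1a@ 6.76-fold and 416-fold. The Ugt1a@ folds depend on the probe. A second one, well above background on all 14 liver and all 14 fat arrays, had means of only -1.47 in liver and -2.32 in fat. It was well above background on no muscle array. Mgst1, the abundant microsomal transferase, was 93.9-fold higher in liver than in muscle and 29.2-fold higher in fat than in muscle. Gstp1, the pi class enzyme found in most tissues, was 1.32-fold higher in liver than in muscle, with arrays that overlapped. It was 3.37-fold higher in liver than in fat (adjusted p = 1.50e-22, limma) and 2.55-fold higher in muscle than in fat (adjusted p = 2.48e-19), in both cases without overlap.

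**Figure D1:**
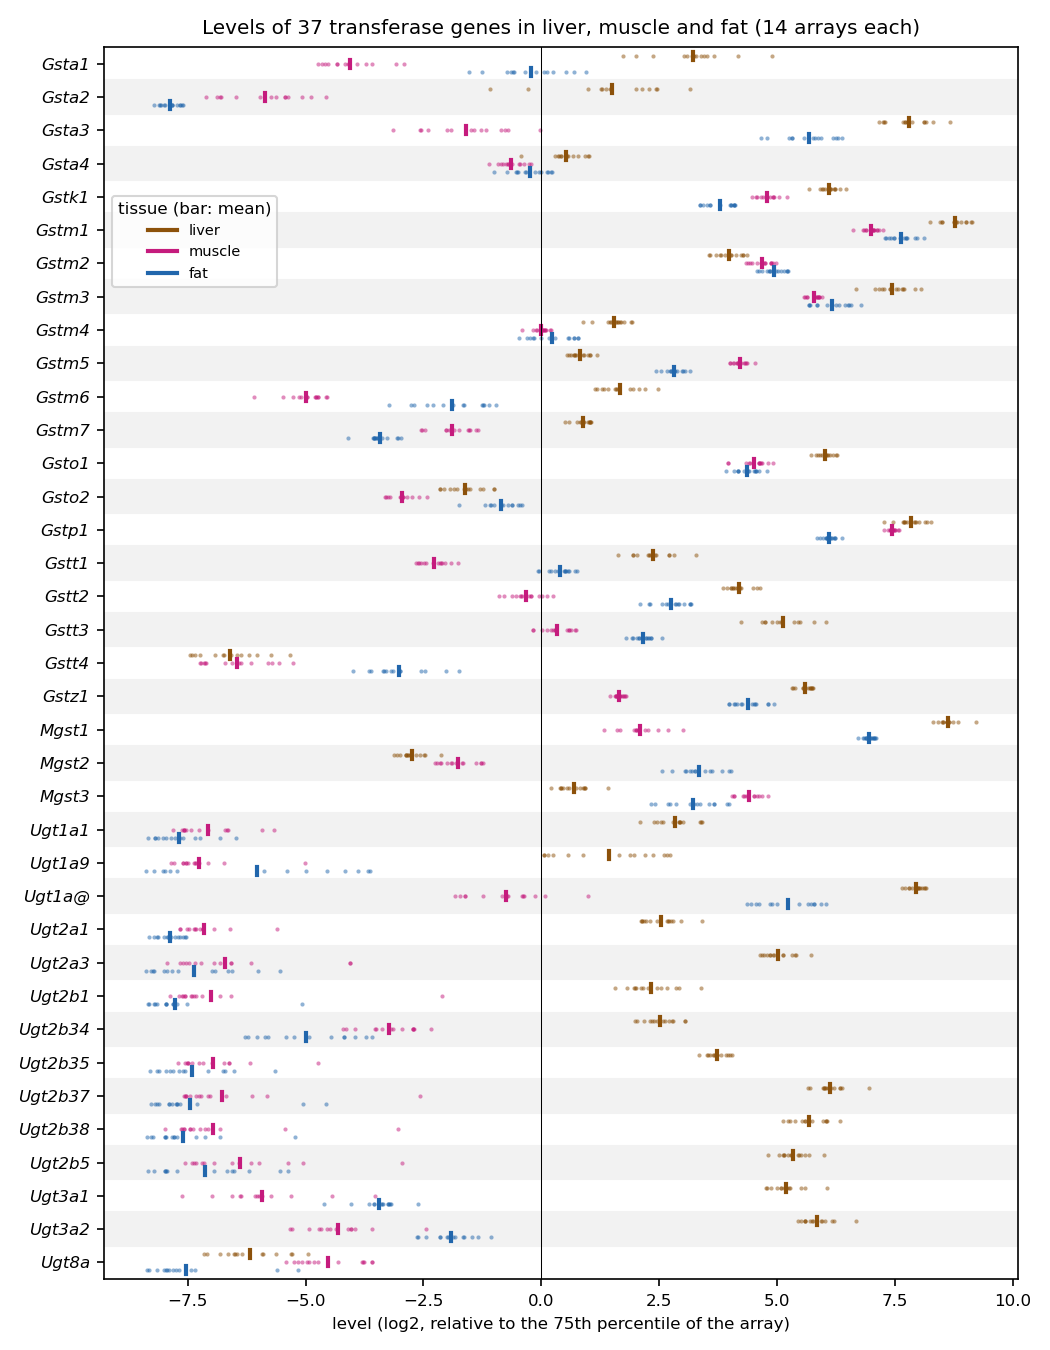
Levels of the 37 genes on every array, as log2 relative to the 75th percentile of the array, with liver, muscle and fat in 3 colours (14 arrays each) and a bar at each mean. Most UGT genes lie far to the right in liver only, Mgst2 and Gstt4 lie to the right in fat, and Gstm5 and Mgst3 in muscle.

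In liver, the genes of both families leaned towards lower levels in Akt1+/- mice, and 5 passed the test over both ages: Gsta3, Gstt1, Gstt3, Gstm6 and Ugt3a1. All 5 fell. They were 5 of the 35 genes tested (14.3%), where 6.02% of the 17572 genes tested in liver were called and 2.45% were called lower. The estimate was below 0 for 30 of the 35, against 47.0% of all genes, and its median was -0.22 against 0.02. Of the glutathione transferases 4 of 22 were called and of the UGT genes 1 of 13, and 17 of the 35 had an unadjusted p under 0.05 (26.3% of all genes). With normexp and quantile scaling 26 of the 35 were below 0, their median was -0.10 and 4 were called, all lower. Under another scaling, by the median of each array, the median difference of all liver genes moved to -0.11, the share of higher calls among all genes called went from 59.2% to 15.3%, and 16 of the 35 were called, all lower.

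Gsta3 fell by 0.64 on the log2 scale (SE 0.14, 95% interval -0.94 to -0.35), a 1.56-fold lower level (adjusted p = 0.0227, limma). Its levels were 8.15, 8.30 and 8.66 in the wild-type livers of 8 weeks, while the Akt1+/- livers read 7.76, 7.87 and 7.28. At 35 weeks they were 7.68, 8.11, 7.71 and 8.11 in wild-type against 7.3, 7.71, 7.15 and 7.25 in Akt1+/- livers. The genotypes did not overlap at 8 weeks, and at 35 weeks 1 Akt1+/- liver reached the lower wild-type ones. The difference was -0.74 at 8 weeks and -0.55 at 35 weeks, and a second Gsta3 probe gave -0.55 over both ages. The probe lies at chr1:21250259-21250318 on mm8.

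The theta class enzymes act on small halogenated compounds. Gstt1 was 2.72, 2.81 and 3.28 in wild-type against 2.43, 2.28 and 1.93 in Akt1+/- livers at 8 weeks, and 2.42, 2.70, 2.26 and 2.31 in wild-type against 2.03, 2.34, 1.62 and 1.94 in Akt1+/- livers at 35 weeks. It fell by 0.58 (SE 0.14), 1.50-fold (adjusted p = 0.0305), and only 1 older Akt1+/- liver lay within the wild-type range of its age. Gstt3, its neighbour on chromosome 10, was 5.36, 6.05 and 5.78 in wild-type against 5.0, 4.89 and 4.68 in Akt1+/- livers at 8 weeks. At 35 weeks it was 5.07, 5.45, 4.75 and 5.48 in wild-type against 4.24, 5.11, 4.75 and 5.11 in Akt1+/- livers. The genotypes were separate at 8 weeks and mixed at 35 weeks, and the fall of 0.63 (SE 0.17), 1.54-fold, was close to the threshold (adjusted p = 0.0498). The probes lie at chr10:75230664-75237828 for Gstt1, with ends further apart than a probe is long, and chr10:75217937-75217996 for Gstt3, both on mm8.

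Gstm6 belongs to the mu class, which conjugates epoxides. It was 1.65, 2.19 and 2.47 in wild-type against 1.60, 1.56 and 1.32 in Akt1+/- livers at 8 weeks, and 1.88, 2.07, 1.41 and 1.93 in wild-type against 1.29, 1.58, 1.14 and 1.19 in Akt1+/- livers at 35 weeks. It fell by 0.57 (SE 0.14), 1.48-fold (adjusted p = 0.0372), with 1 older Akt1+/- liver above the lowest wild-type one. Ugt3a1, which transfers N-acetylglucosamine, was 5.50, 5.59 and 6.05 in wild-type against 5.27, 5.20 and 4.88 in Akt1+/- livers at 8 weeks. At 35 weeks it was 5.25, 5.15, 5.18 and 5.07 in wild-type against 4.79, 5.08, 4.77 and 5.0 in Akt1+/- livers. Its fall of 0.43 (SE 0.10), 1.34-fold, was the smallest of the 5 (adjusted p = 0.0336), and again 1 older Akt1+/- liver lay within the wild-type range. The probes lie at chr3:108069107-108069251 and chr15:9253887-9253946 on mm8.

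**Figure D2:**
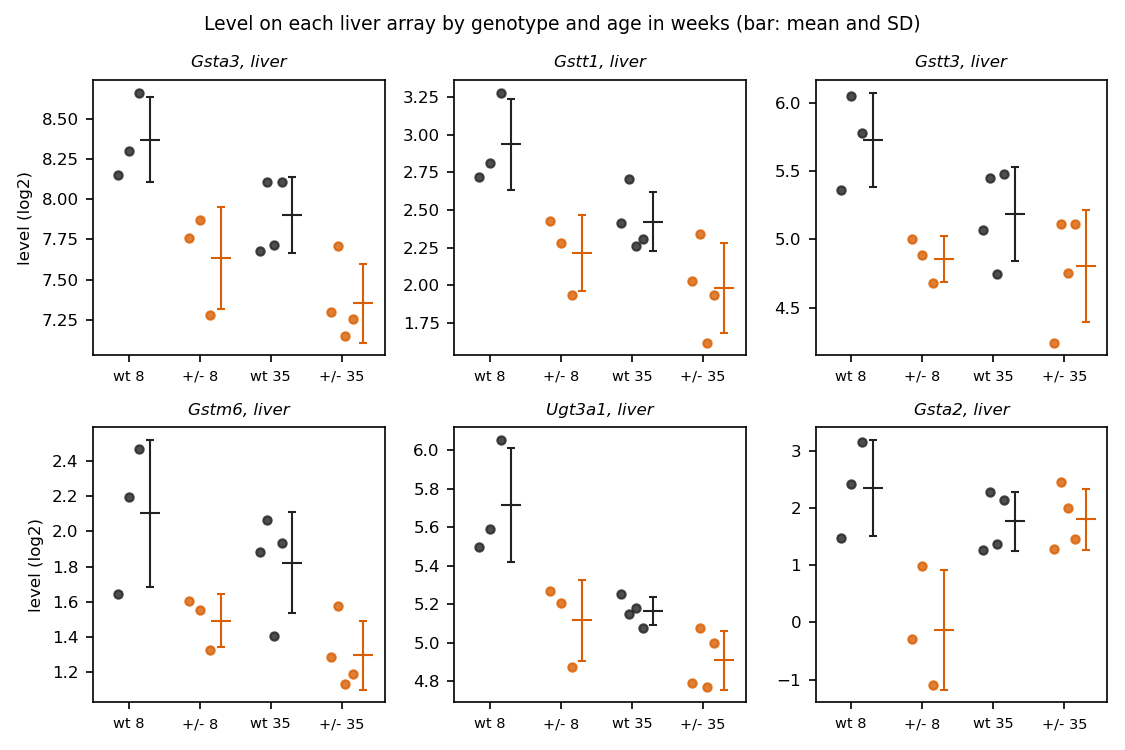
Levels of Gsta3, Gstt1, Gstt3, Gstm6, Ugt3a1 and Gsta2 in each liver sample (log2 relative to the 75th percentile of the array; points are arrays, and the mark beside them is the group mean ± SD), for wild-type and Akt1+/- mice at 8 and 35 weeks. For all 6 genes the 3 Akt1+/- livers of 8 weeks lie below the 3 wild-type livers, while at 35 weeks the ranges of the genotypes overlap. The genes were chosen by calls on these same arrays, and the share of all liver genes that separate at 8 weeks was not counted.

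Equal replicate numbers deviated together at 35 weeks, and within the 4 same-numbered pairs of that age Gsta3 (by -0.86 to -0.38), Gstt1 (-0.64 to -0.36), Gstm6 (-0.74 to -0.27) and Ugt3a1 (-0.46 to -0.07) were lower in the Akt1+/- liver in 4 of 4 pairs, Gstt3 in 3 and Gsta2 in 1. These genes were chosen by calls on the same arrays, so the pair counts add no support. Members that were not called, such as Gstk1, Gstm2 and Mgst1, were also lower in 4 of 4 liver pairs. The share of all genes was not counted. The pair counts given below for fat and muscle likewise come from the arrays behind the estimates.

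At each age taken alone the tests found less. At 8 weeks 1 of the 35 genes was called (2.16% of all genes), Gsta2, and 13 had an unadjusted p under 0.05 (20.9% of all genes). At 35 weeks 0 of 35 were called (3.44% of all genes), with 9 at an unadjusted p under 0.05 (16.9% of all genes). The estimates were below 0 for 27 genes at 8 weeks (50.9% of all genes) and for 31 at 35 weeks (46.7% of all genes). Gsta2, an alpha class enzyme that also reduces lipid hydroperoxides, was 1.47, 2.42 and 3.15 in wild-type against -0.29, 0.99 and -1.09 in Akt1+/- livers at 8 weeks. It was thereby 5.57-fold lower (-2.48, SE 0.54, 95% interval -3.64 to -1.32, adjusted p = 0.0374), with no overlap. At 35 weeks it was 1.27, 2.28, 1.38 and 2.14 in wild-type against 1.29, 2.46, 2.00 and 1.45 in Akt1+/- livers, fully mixed, and the difference was 0.03 (95% interval -0.97 to 1.04). The change of the genotype difference with age was 2.51 (SE 0.71) and did not pass (adjusted p = 0.137). Gsta1, whose probe shares transcripts with Gsta2, differed by -0.65 over both ages (adjusted p = 0.271).

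The other genes with an unadjusted p under 0.05 in liver stayed above the threshold after adjustment. The mu class genes Gstm1 (-0.34, adjusted p = 0.0756), Gstm2 (-0.35, adjusted p = 0.0649) and Gstm3 (-0.34, adjusted p = 0.158) had negative estimates. So had Gsto1 (-0.23, adjusted p = 0.0627), Ugt3a2 (-0.33, adjusted p = 0.0763) and Ugt2b1 (-0.41). All 8 UGT2 genes had estimates below 0, with a median of -0.21, although none was called. The omega gene Gsto2 went the other way, with 0.33 (adjusted p = 0.111).

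The wild-type and Akt1+/- livers were hybridised on different slides at both ages, and within an age the effect of the slide and that of the genotype cannot be told apart. With slide as a random block 0 of the 35 genes were called. With the replicate number as a block, 3 of the 35 were called, and Gstm6 (adjusted p = 0.0536) and Ugt3a1 (adjusted p = 0.0846) were not. At 8 weeks the hepatocyte marker sum was 1465 to 1515 in wild-type livers and 1213 to 1364 in Akt1+/- livers, without overlap. In the older livers it was 1254 to 1662 and 1196 to 1341, and the genotypes overlapped. The sum of 5 adipocyte markers was 3.80 to 6.19 in wild-type and 15.4 to 96.8 in Akt1+/- livers of 8 weeks. Adipoq, Lep and Plin1 were well above background on no liver array of 8 weeks, and Cfd on no Akt1+/- one, which leaves only Cidec there. At 35 weeks the sum was 7.83 to 35.5 in wild-type and 17.3 to 72.0 in Akt1+/- livers. Lep was well above background on no liver array of that age, and Plin1 and Cfd on no Akt1+/- one. The sum of 5 pancreas acinar markers, of which 4 were well above background on no liver array of 8 weeks, was 5.46 to 8.64 in wild-type and 2.67 to 5.34 in Akt1+/- livers of that age. The part of these sums in the differences was not tested. Leaving out wild-type replicate 2 of 8 weeks left 0 calls, and leaving out Akt1+/- replicate 2 of 35 weeks left 8.

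Ugt1a9, a phenol and fatty acid transferase of the UGT1 locus, had the widest spread of any gene of its locus in liver. It was 0.05, 0.06 and 0.56 in wild-type against 1.88, 0.88 and 1.96 in Akt1+/- livers at 8 weeks. At 35 weeks it was 2.67, 2.72, 2.20 and 2.37 in wild-type against 1.64, 2.60, 0.14 and 0.25 in Akt1+/- livers. The Akt1+/- livers were thus the higher ones at 8 weeks, without overlap, and the lower ones at 35 weeks, where 1 of them lay among the wild-type livers. The difference was 1.35 at 8 weeks (adjusted p = 0.176) and -1.33 at 35 weeks (adjusted p = 0.149), and the change between the ages was -2.68 (SE 0.71, adjusted p = 0.115). None of these passed. Over all 35 genes 0 were called for a genotype difference that changed with age, where 0.541% of all liver genes were called, and 2 had an unadjusted p under 0.05 (13.9% of all genes), Gsta2 and Ugt1a9.

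**Figure D3:**
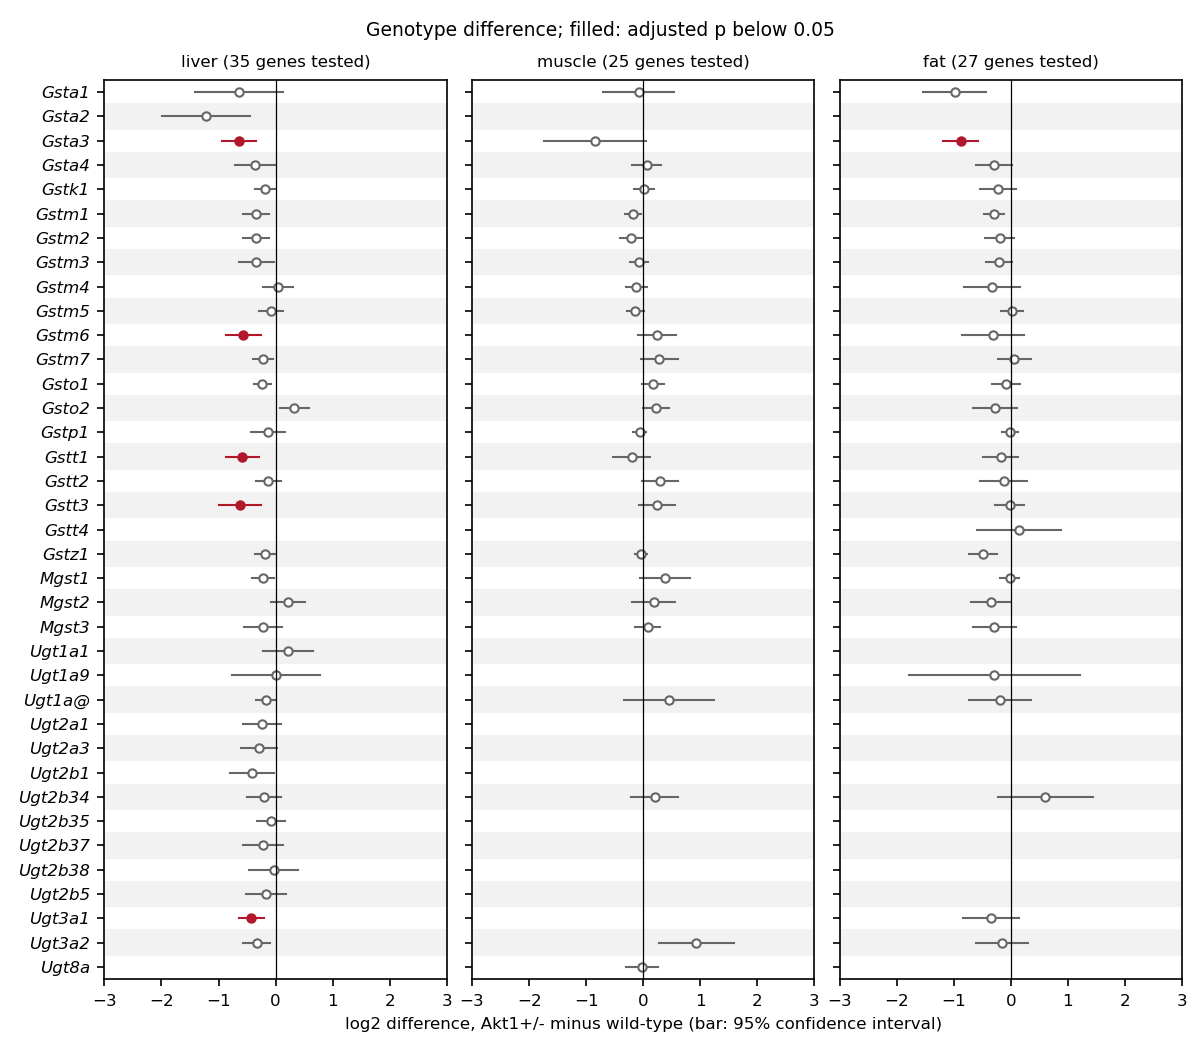
Difference between Akt1+/- and wild-type samples over both ages (log2, points) with 95% confidence intervals (bars) for the 35, 25 and 27 genes tested in liver, muscle and fat; filled red points passed the test. In liver 30 of 35 points and in fat 23 of 27 lie below 0, against 11 of 25 in muscle.

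In visceral fat, Gsta3 was again lower in Akt1+/- mice, and it was the only 1 of the 27 genes tested that passed (0.825% of all 18420 genes tested in fat were called, 0.597% lower). The estimate was below 0 for 23 of the 27 genes, against 51.7% of all genes, and the median was -0.20 against -0.01. Among all calls in fat 27.6% were higher, and 39.3% with normexp and quantile scaling, under which 2 of the 27 genes were called, both lower. Gsta3 was 5.80, 6.29 and 5.94 in wild-type against 4.78, 4.65 and 5.25 in Akt1+/- fat at 8 weeks. At 35 weeks it was 6.25, 6.19, 5.77 and 6.38 in wild-type against 5.31, 5.86, 5.31 and 5.57 in Akt1+/- fat. Each Akt1+/- sample of 8 weeks lay below every wild-type one, and at 35 weeks 1 Akt1+/- sample exceeded the lowest wild-type one, although the Akt1+/- sample was the lower in 4 of 4 same-numbered pairs (by -0.94 to -0.33). Gsta3 fell by 0.88 (SE 0.14, 95% interval -1.18 to -0.57), 1.84-fold (adjusted p = 0.0219), by 1.12 at 8 weeks (adjusted p = 0.038) and by 0.64 at 35 weeks. A second probe gave -0.87.

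At 8 weeks Gsta3 was also the only member called in fat (1.86% of all genes), and 8 of the 27 had an unadjusted p under 0.05 (24% of all genes). At 35 weeks 0 of 27 were called (1.69% of all genes), with 5 at an unadjusted p under 0.05 (12.3% of all genes). On the 1 slide that held both genotypes, 3 Akt1+/- samples and 1 wild-type sample of 8 weeks, the Gsta3 difference was -1.04. The macrophage and leukocyte marker sum was 13.2 to 16.3 in wild-type and 20.6 to 23.7 in Akt1+/- fat of 8 weeks, and the mesothelial sum 17.2 to 25.8 and 26.2 to 40.5, neither with overlap. The hepatocyte sum was 1.85 to 8.71 in wild-type and 0.790 to 1.11 in Akt1+/- fat of that age. The pancreas acinar sum was 4.90 to 5.73 and 3.50 to 3.66, and neither of these sums overlapped. At 35 weeks all of these sums overlapped (the mesothelial one at 25.1 to 32.0 against 26.3 to 32.6), while the adipocyte sum was 1399 to 1624 in wild-type and 1096 to 1321 in Akt1+/- fat. Their part in the Gsta3 difference was not tested. The Gsta3 call was lost with the replicate number as a block (adjusted p = 0.0697) and without wild-type replicate 2 of 8 weeks, and 3 members were called without wild-type replicate 3. At 35 weeks each slide held 1 genotype, and these cannot be told apart.

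Gstz1, which isomerises maleylacetoacetate in tyrosine breakdown, and Gsta1 came next without passing. Of 27 alternatives, Gstz1 passed in 4 and Gsta1 in 2. Gstz1 was 4.24, 4.80 and 4.93 in wild-type against 3.98, 4.15 and 3.98 in Akt1+/- fat at 8 weeks, and 4.56, 4.81, 4.53 and 4.48 in wild-type against 4.11, 4.51, 4.08 and 4.26 in Akt1+/- fat at 35 weeks. The genotypes were separate at 8 weeks, and at 35 weeks 1 Akt1+/- sample lay within the wild-type range; the estimate was -0.49 (adjusted p = 0.0695). Gsta1 was 0.26, 0.95 and -0.72 in wild-type against -1.53, -1.26 and -0.59 in Akt1+/- fat at 8 weeks, and -0.11, 0.53, 0.11 and 0.70 in wild-type against -0.65, 0.05, -0.58 and -0.34 in Akt1+/- fat at 35 weeks. Its genotypes overlapped at both ages, with an estimate of -0.99 (adjusted p = 0.0865). For both Gstz1 and Gsta1 the Akt1+/- sample was the lower in each same-numbered pair of 35 weeks. Gstm1 (-0.29, adjusted p = 0.104) and Mgst2 (-0.35, adjusted p = 0.246) were the remaining genes with an unadjusted p under 0.05.

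**Figure D4:**
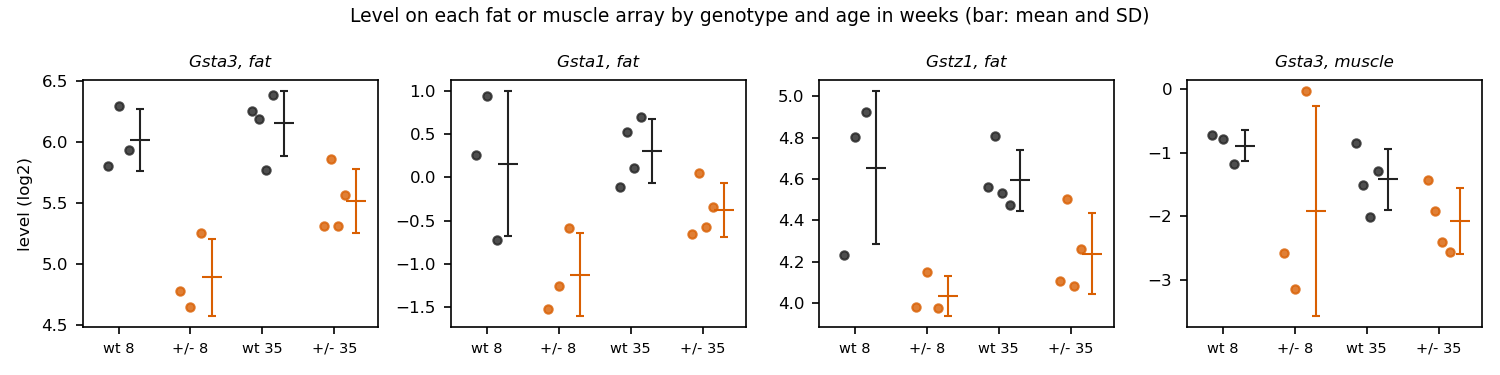
Levels of Gsta3, Gsta1 and Gstz1 in fat and of Gsta3 in muscle in each sample (log2 relative to the 75th percentile of the array; points are arrays, and the mark beside them is the group mean ± SD). In fat the 3 Akt1+/- samples of 8 weeks lie below the wild-type samples for Gsta3 and Gstz1, and in muscle 1 Akt1+/- sample of 8 weeks lies far above the others of its group. The genes shown in fat were chosen by their genotype p on these same arrays.

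Ugt1a9 was also measured in fat, though well above background on only 6 arrays, 4 wild-type and 2 Akt1+/- ones of 35 weeks. Its readings were -8.22, -8.03 and -7.72 in wild-type against -5.88, -7.87 and -5.39 in Akt1+/- fat at 8 weeks, all not well above background. At 35 weeks they were -3.89, -4.17, -3.67 and -4.55 in wild-type against -5.0, -3.63, -8.39 and -7.98 in Akt1+/- fat. As in liver, Akt1+/- replicates 3 and 4 of 35 weeks were the low ones and all wild-type samples of that age were high. The labels do not state that equal replicate numbers are the same mouse. Ugt1a9 entered the test in fat only through the wild-type group of 35 weeks, where it was high, and no difference against the background readings of the other groups is given. Of the 27 genes 0 were called for a genotype difference that changed with age (1.55% of all genes), with 5 at an unadjusted p under 0.05 (20.1% of all genes).

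In muscle no gene of either family passed for genotype: 0 of 25 were called by limma, as were 0 of the 17174 genes tested there (0% of all genes), and 3 of the 25 had an unadjusted p under 0.05 (18.5% of all genes). The estimates were below 0 for 11 of the 25, against 50.6% of all genes. At 8 weeks (0% of all genes) and at 35 weeks (0.099% of all genes) 0 of 25 were called as well, with 6 and 1 at an unadjusted p under 0.05 (15.8% and 9.15% of all genes). For a genotype difference that changed with age 0 of 25 were called (0% of all genes), and 2 had an unadjusted p under 0.05 (8.44% of all genes).

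The lowest p belonged to Ugt3a2, a relative of Ugt3a1 that was dim in muscle. It was -4.48, -5.29 and -5.32 in wild-type against -4.03, -4.67 and -2.45 in Akt1+/- muscle at 8 weeks, and -4.54, -4.94, -4.03 and -4.71 in wild-type against -4.10, -4.36, -3.96 and -3.58 in Akt1+/- muscle at 35 weeks. The highest reading was that of the array with the high hepatocyte marker sum, and the estimate of 0.93 (adjusted p = 0.168) became 0.62 without it. Gstm1 was 7.03, 7.05 and 6.85 in wild-type against 6.89, 6.61 and 6.90 in Akt1+/- muscle at 8 weeks, and 7.11, 7.17, 7.13 and 7.24 in wild-type against 7.02, 7.02, 6.82 and 7.05 in Akt1+/- muscle at 35 weeks. The older genotypes did not overlap, but the estimate was small, -0.18 (adjusted p = 0.196). Gstm2 differed by -0.21 (adjusted p = 0.25).

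Gsta3 in muscle was -0.71, -0.78 and -1.17 in wild-type against -2.57, -3.14 and -0.03 in Akt1+/- samples at 8 weeks. At 35 weeks it was -0.85, -1.50, -2.01 and -1.29 in wild-type against -1.42, -1.91, -2.41 and -2.56 in Akt1+/- samples. The sample at -0.03 was the one with the high hepatocyte marker sum, and the other Akt1+/- samples of 8 weeks lay below all wild-type ones of that age. In each same-numbered pair of 35 weeks the Akt1+/- sample was the lower. The estimate of -0.84 had a 95% interval of -1.74 to 0.05 (adjusted p = 0.298), which holds both 0 and the differences seen in liver and fat. Without the sample at -0.03 the estimate was -1.32 (SE 0.23, unadjusted p = 0.000137, adjusted p = 0.103).

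In the test of whether the genotype difference varied between the tissues, 3 of the 37 genes were called (4.19% of all genes), Gstt3 (adjusted p = 0.0337, limma F test), Ugt3a2 (adjusted p = 0.0347) and Gsta2 (adjusted p = 0.0463). For Gstt3 the estimates were -0.63 in liver, 0.25 in muscle and -0.02 in fat. For Ugt3a2 they were -0.33, 0.93 and -0.15, and Gsta2 was well above background on no array outside liver, so that its call sets liver against background readings and shows no variation between tissues. Without the 2 arrays that carried liver-type signal 2 genes were called, and Gstt3 (adjusted p = 0.0539) and Ugt3a2 (adjusted p = 0.0576) were no longer among them. For Gsta3 the same test gave an adjusted p of 0.901, with estimates of -0.64, -0.84 and -0.88.

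The counts of members that passed the test for age were near those of all genes and are no result about these families. In liver 10 of 35 genes were called between 8 and 35 weeks, 9 lower and 1 higher (28.6%, where 34.8% of all liver genes were called, 15% lower and 19.7% higher). In muscle 7 of 25 were called, 5 higher and 2 lower (28%, against 31.2% of all genes, 16.8% higher and 14.4% lower). In fat 6 of 27 were called, 5 higher and 1 lower (22.2%, against 19.2% of all genes, 9.92% higher and 9.29% lower). With the replicate number as a random block within age, the calls numbered 6 for liver, 5 for muscle and 4 for fat. Arrays of the ages were scanned on different days, so that age and scan day cannot be told apart. The split in liver depended on the scaling: by the median of each array, which moved the median of all liver genes to -0.18 and the share of higher calls from 56.8% to 24.1%, 18 genes were called lower and 0 higher, while background correction by normexp with quantile scaling gave 4 higher and 5 lower. In muscle median scaling gave 3 higher and 2 lower, and 53.8% of all calls were higher in the main scaling and 42.8% in this one.

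The adipocyte marker sum in wild-type liver was 3.80 to 6.19 at 8 weeks and 7.83 to 35.5 at 35 weeks, without overlap, with Adipoq and Lep well above background on no array of either group, and its part in the age differences was not tested. The largest called fall in liver was that of Ugt2b1. It was 2.67, 2.92 and 3.38 in wild-type against 2.26, 2.86 and 2.00 in Akt1+/- livers at 8 weeks, and 1.99, 2.45, 2.11 and 2.15 in wild-type against 1.97, 2.54, 1.56 and 1.82 in Akt1+/- livers at 35 weeks. All 3 young wild-type livers lay above every older liver, and the fall of 0.61, 1.53-fold (adjusted p = 0.0198), was lost without wild-type replicate 3 of 8 weeks. Ugt3a2, whose enzyme uses glucose and xylose, had the lowest adjusted p of the 10 (0.00729): it was 6.17, 6.21 and 6.67 in wild-type against 5.94, 6.02 and 5.60 in Akt1+/- livers at 8 weeks, and 5.95, 5.74, 5.71 and 5.60 in wild-type against 5.51, 5.77, 5.44 and 5.59 in Akt1+/- livers at 35 weeks. All but 2 of the young livers, both Akt1+/-, lay above every older liver, and the fall was 0.44, 1.35-fold. A second Ugt3a2 probe, well above background on all 14 liver arrays, gave -0.09, and the mean of both probes gave -0.27, which did not pass (adjusted p = 0.191). Ugt2a1 (-0.44, adjusted p = 0.0434, or 0.0668 with the replicate block), Ugt2b34 (-0.43, adjusted p = 0.027) and Ugt3a1 (-0.38, adjusted p = 0.0128) also fell. Over the alternatives the Ugt2a1 call was lost in 19 of 27, and a second Ugt2a1 probe, well above background on all 14 liver arrays, gave -0.18. Of the glutathione transferases Gsta3 (-0.38), Gstt1 (-0.37), Gstm4 (-0.36) and Gstt2 (-0.29) fell, with adjusted p between 0.0361 and 0.0489; with the replicate block Gsta3 (0.0715), Gstt1 (0.0713) and Gstt2 (0.0678) no longer passed.

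Gsto2 was the only gene that rose in liver, by 0.47 (SE 0.12), 1.39-fold (adjusted p = 0.0101). It was -2.15, -2.14 and -1.50 in wild-type against -1.65, -1.85 and -2.07 in Akt1+/- livers at 8 weeks, and -1.60, -1.93, -1.55 and -1.79 in wild-type against -1.23, -1.30, -1.01 and -1.0 in Akt1+/- livers at 35 weeks. The 4 older Akt1+/- livers were the highest of all, and the other groups overlapped. With median scaling the rise no longer passed. A second Gsto2 probe was dim.

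In muscle the largest change was that of Ugt8a, the galactosylceramide synthase of myelinating cells. It was -3.78, -3.60 and -3.81 in wild-type against -3.60, -4.32 and -3.76 in Akt1+/- muscle at 8 weeks, and -5.07, -4.92, -4.97 and -5.41 in wild-type against -4.82, -5.17, -5.24 and -4.73 in Akt1+/- muscle at 35 weeks. No older sample reached a young one, in either genotype. The fall of 1.23 (SE 0.13), 2.34-fold (adjusted p = 5.16e-05), stands for a gene that was well above background on 6 of 6 young and 5 of 8 older arrays. With normexp and quantile scaling the fall was called too, but at -0.39. Ugt8a had 3 probes. The others were well above background on no muscle array and gave age differences of -0.28 and 0.18. Ugt2b34 fell by 0.87, 1.82-fold (adjusted p = 0.00517): it was -2.73, -2.71 and -2.73 in wild-type against -2.35, -3.19 and -2.71 in Akt1+/- muscle at 8 weeks, and -3.38, -4.21, -4.15 and -3.52 in wild-type against -3.14, -3.95, -3.51 and -2.97 in Akt1+/- muscle at 35 weeks. Only 1 young sample lay within the older range. Over the alternatives the Ugt2b34 difference was -0.98 to -0.41.

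Of the 25 genes tested in muscle 21 were glutathione transferases, and 5 of these rose (23.8%, where 16.8% of all genes did). Gsto1, an omega enzyme that reduces thiols and arsenic compounds, was 3.96, 3.97 and 4.41 in wild-type against 4.33, 4.43 and 4.64 in Akt1+/- muscle at 8 weeks, and 4.61, 4.62, 4.80 and 4.69 in wild-type against 4.62, 4.65, 4.91 and 4.50 in Akt1+/- muscle at 35 weeks. The wild-type ages were separate and the Akt1+/- ages overlapped, with a rise of 0.38, 1.31-fold (adjusted p = 0.00813). The adipocyte marker sum in wild-type muscle was 24.6 to 58.9 at 8 weeks and 73.0 to 110.5 at 35 weeks, without overlap, and in Akt1+/- muscle 26.9 to 111.6 and 59.6 to 179.3; its part in the age differences was not tested. Gstm6 rose by 0.55 (adjusted p = 0.0165, or 0.051 with the replicate block) from a dim level, well above background on 3 of 6 young and 6 of 8 older arrays. Over the alternatives its rise was 0.19 to 0.64. Gstm7 (0.53, adjusted p = 0.0195), Mgst3 (0.30, adjusted p = 0.0363, or 0.076 with the block) and Gstk1, the mitochondrial and peroxisomal kappa enzyme (0.30, adjusted p = 0.0146), rose as well. The Gstm7 call was lost with the mean of its probes (adjusted p = 0.0811) and without wild-type replicate 1 or 2 of 8 weeks, and a second probe, well above background on all 14 muscle arrays, gave 0.24. The Mgst3 call was lost in 15 of 27 alternatives. Among these was leaving out Akt1+/- replicate 3 of 8 weeks, which had the high hepatocyte marker sum. Of the other Mgst3 probes the brighter one gave 0.19 and the dimmer one -0.11.

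In fat the risers were mu class genes, Mgst3 and Gstp1. Gstm6 was -2.70, -1.67 and -1.87 in wild-type against -2.75, -3.23 and -2.42 in Akt1+/- fat at 8 weeks, and -1.63, -1.10, -2.08 and -1.26 in wild-type against -2.30, -1.23, -1.22 and -0.96 in Akt1+/- fat at 35 weeks. The ages overlapped in wild-type fat and were separate in Akt1+/- fat, and the rise was 0.97, 1.96-fold (adjusted p = 0.0191). The macrophage and leukocyte marker sum in Akt1+/- fat was 20.6 to 23.7 at 8 weeks and 13.9 to 17.3 at 35 weeks, without overlap. The hepatocyte sum in Akt1+/- fat was 0.790 to 1.11 and 1.21 to 2.79 at these ages, also without overlap. In wild-type fat the hepatocyte sum overlapped, and the pancreas acinar sum was 4.90 to 5.73 and 3.29 to 4.82, without overlap. The part of these sums in the age differences was not tested. Mgst3 rose by 0.76, 1.70-fold (adjusted p = 0.0108): it was 2.73, 3.16 and 3.31 in wild-type against 2.41, 2.33 and 2.69 in Akt1+/- fat at 8 weeks, and 3.37, 3.93, 3.56 and 3.24 in wild-type against 2.87, 3.98, 3.67 and 3.65 in Akt1+/- fat at 35 weeks. Of the 8 older samples 7 lay above every young one of their genotype. With the mean of the Mgst3 probes the rise was 0.62 and did not pass (adjusted p = 0.0888). Gstm3 was 5.69, 5.84 and 6.17 in wild-type against 5.84, 5.67 and 5.67 in Akt1+/- fat at 8 weeks, and 6.56, 6.53, 6.31 and 6.79 in wild-type against 6.06, 6.44, 6.25 and 6.50 in Akt1+/- fat at 35 weeks. Within each genotype its ages did not overlap, with a rise of 0.62, 1.53-fold (adjusted p = 0.00222). Gstm1 rose by 0.31 (adjusted p = 0.0193) and Gstp1 by 0.21 (adjusted p = 0.0411, or 0.0645 with the replicate block), the latter with its call lost in 16 of 27 alternatives. Among these was leaving out wild-type replicate 1 of 8 weeks, the fat array with the highest hepatocyte marker sum. Ugt2b34, the only UGT gene called in fat, fell by 1.17 (adjusted p = 0.0493, or 0.0749 with the block). The Ugt2b34 call was lost in 17 of 26 alternatives, among them leaving out the same wild-type replicate 1. Over the alternatives the difference was -1.48 to -0.24. The gene was well above background on 5 of 6 young and 4 of 8 older arrays.

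**Figure D5:**
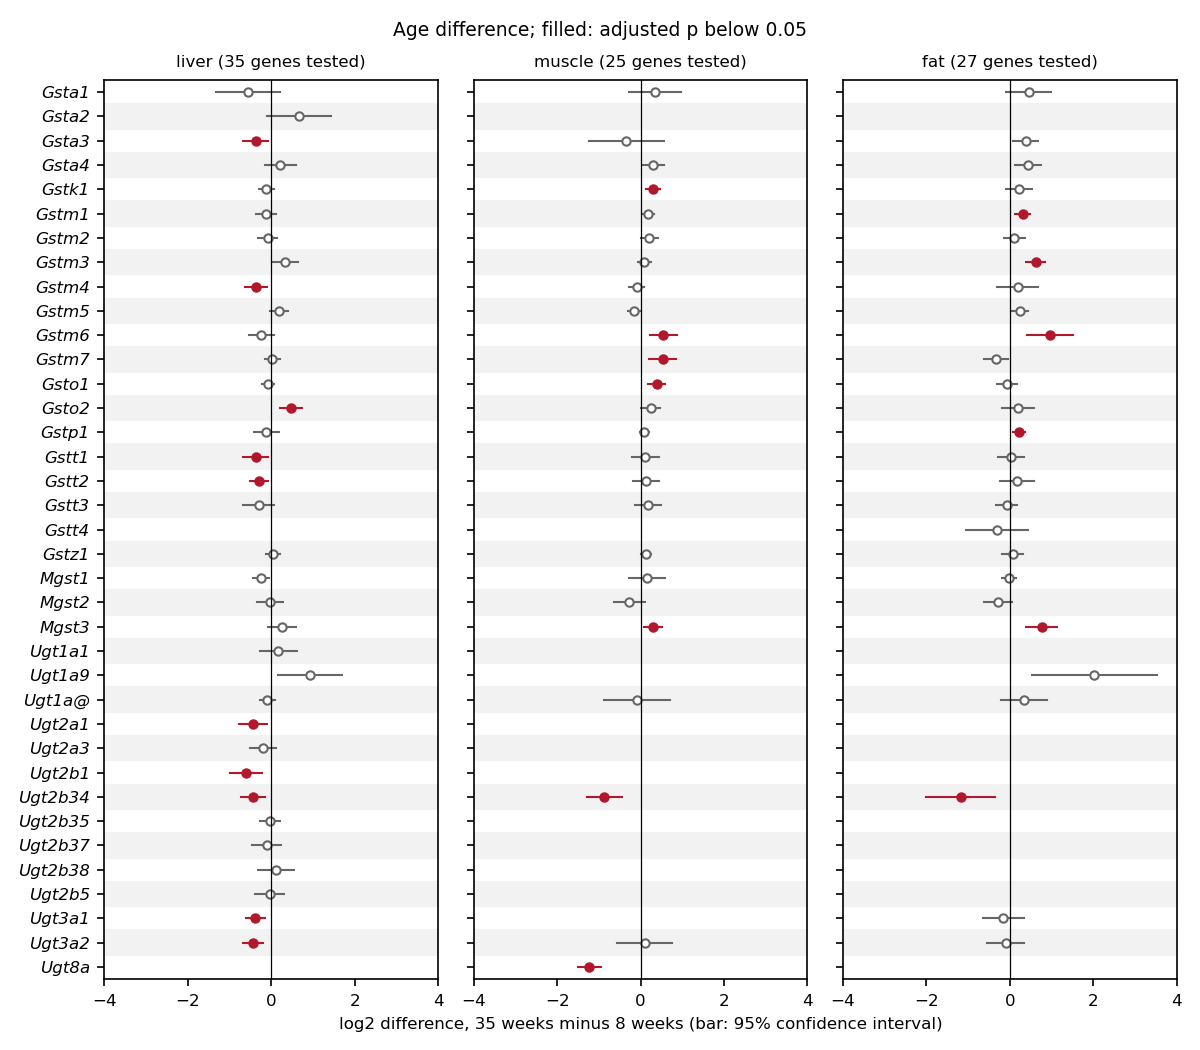
Difference between 35 and 8 weeks over both genotypes (log2, points) with 95% confidence intervals (bars) for the genes tested in liver, muscle and fat; filled red points passed the test. In liver 9 of the 10 filled points lie below 0, while 5 of 7 in muscle and 5 of 6 in fat lie above 0.

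The age difference varied between the tissues for 7 of the 37 genes (30.5% of all genes), all of them glutathione transferases and 5 of them of the mu class. Gstm7 (adjusted p = 0.00197, limma F test) differed by 0.02 in liver, 0.53 in muscle and -0.34 in fat, though a second probe gave 0.31 in liver and 0.23 in fat. Gstm6 (adjusted p = 0.00443) differed by -0.24, 0.55 and 0.97, and Gsto1 (adjusted p = 0.0079) by -0.08, 0.38 and -0.07. Gstm1 (adjusted p = 0.0165) differed by -0.13, 0.18 and 0.31, Gstm5 (adjusted p = 0.0209) by 0.19, -0.15 and 0.25, and Gstm3 (adjusted p = 0.0359) by 0.33, 0.09 and 0.62. Gsta2 (adjusted p = 0.00645) was measured in liver only, and its call again sets liver against background readings. When both arrays with liver-type signal were left out, 9 genes were called and Gstm3 was not among them (adjusted p = 0.135). As the share of all genes was larger, the count of 7 does not set these genes apart.

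Of the genes around these enzymes 1 was called for genotype. Of 40 genes for glutathione supply, UDP-glucuronic acid supply, Nrf2 signalling, xenobiotic receptors, related transferases and conjugate export, the liver arrays allowed a test of 37, muscle of 35 and fat of 36, and only Gpx1 in liver was called for genotype (2.70% of the 37, where 6.02% of all liver genes were called). Gpx1, the main cytosolic glutathione peroxidase, was 8.99, 9.09 and 9.23 in wild-type against 8.65, 8.73 and 8.50 in Akt1+/- livers at 8 weeks, and 8.58, 8.81, 8.81 and 8.68 in wild-type against 8.58, 8.76, 8.44 and 8.34 in Akt1+/- livers at 35 weeks. Its genotypes were separate at 8 weeks and overlapped at 35 weeks, with a fall of 0.33, 1.26-fold (adjusted p = 0.037, limma). None of the 6 Nrf2 pathway genes tested in each tissue was called for genotype, and their median differences were -0.06 in liver, -0.05 in muscle and 0.07 in fat. Between the ages 13 of the 37 pathway genes were called in liver (3 higher, 10 lower; 35.1%, against 34.8% of all genes), 9 of the 35 in muscle (5 higher, 4 lower; 25.7%, against 31.2%) and 5 of the 36 in fat (3 higher, 2 lower; 13.9%, against 19.2%). The xenobiotic receptor gene Nr1i3 in fat, named here after its values were seen, was the only 1 of the 36 tested there whose genotype difference changed with age (-2.16, adjusted p = 0.002; 2.78%, where 1.55% of all fat genes were called).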

How the data were processed

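The authors hybridised 42 RNA samples to one-colour Agilent whole mouse genome arrays and scanned them with Agilent Feature Extraction (9.5.3.1 per the file headers, 9.1 per the labels). The deposited scanner files give the processed signal as intensity with the scanner's marks for spots well above background, on 43379 spots that are no controls (41174 probes, probe positions on mm8). Saturated spots numbered 0. The 75th percentile of intensity was 274 to 795 on an array. The authors also deposited log2 values, which equalled the values used here up to a constant per array and served as an alternative.

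From the intensity, log2 values minus the 75th percentile of each array were computed, and spots of 1 probe were averaged. Genes were named by the files' accessions through RefSeq (35 of the 37 members, the other 2 by symbol). Each gene was read from its brightest probe. In each tissue limma 3.58.1 (R 4.3.3) was fitted to the 4 groups of genotype and age, with contrasts for genotype averaged over ages, age averaged over genotypes and their interaction, and p-values were adjusted after Benjamini and Hochberg over all genes that passed the filter (3 or more arrays of 1 group well above background); called means an adjusted p under 0.05. Differences at each age came from the same fits and were added after the data were seen. Tissues were compared in 1 fit of all 42 arrays. Where a gene was not well above background on every array of a group, a fold across tissues is a lower bound. Akt1 was tested by exact two-sided permutation. Tables were handled with data.table (version 1.17.8), Python 3.11.15, pandas 2.3.3, numpy 2.4.6 and scipy 1.17.1, and plots drawn with matplotlib 3.10.9.

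The members and gene lists were chosen with earlier results of these data known. The text names Akt1, every member called for genotype or interaction (or the 3 with the lowest genotype p), up to 5 members that rose and 5 that fell with age per tissue, the 5 with the largest difference between tissues in each direction, members measured in 1 tissue only, members called by the genotype-by-tissue F test, and other pathway genes called for genotype. Members outside this rule were named after their values were seen. Alternatives were other scalings (normexp with an offset of 50 and quantile scaling, or the array median), the authors' values, other filters and probes, slide as a random block, the replicate number within age as a block (fixed for genotype, random by duplicateCorrelation for age, since equal numbers deviated together at 35 weeks), an additive model, the two-way test of the study's methods at 0.01, 1 fit over all arrays, and each array left out. The fits were tested on simulated data with 200 genes changed by 1 log2 unit, of which 84.0% were recovered in the liver genotype comparison. The number of arrays, 3 or 4 per group, limits the precision.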

Additional observations from a re-analysis of the deposited data

Results flagged for a closer look

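In 122 groups of 4 arrays (35 weeks) the highest or the lowest sample was set against the other 3; chance marks about 1 group in 20, and 7 were marked. Gstm1 in Akt1+/- muscle was 6.82 in replicate 3 and 7.02 to 7.05 in the others. Mgst1 in Akt1+/- muscle was 2.70 in replicate 1 and 1.98 to 2.08 in the others, and in wild-type liver it was 8.65 in replicate 3 with the others at 8.60. Ugt3a1 in Akt1+/- fat was -4.60 in replicate 1 and -3.26 to -3.18 in the others. Ugt1a1 in Akt1+/- liver was 3.41 in replicate 4 and 2.92 to 3.0 in the others. Akt1 in fat was 3.64 in wild-type replicate 4 (others 3.82 to 3.85) and 3.29 in Akt1+/- replicate 1 (others 3.12 to 3.14), both on their own side of the other genotype.

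The genotype difference varied between the tissues, by limma's F test over the 42 arrays, for Gstt3 (adjusted p = 0.0337), Ugt3a2 (0.0347) and Gsta2 (0.0463). The age difference varied between the tissues for Gstm7 (adjusted p = 0.00197), Gstm6 (0.00443), Gsta2 (0.00645), Gsto1 (0.0079), Gstm1 (0.0165), Gstm5 (0.0209) and Gstm3 (0.0359). Gsta2 was well above background on no muscle or fat array, so that both of its calls set liver against background readings. The values in each tissue stand with the comparisons above.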

How the results depend on the processing

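Of 60 values for single genes under 2321 alternatives, 148 no longer passed, 7 newly passed and 0 reversed. The others kept direction and side of the threshold. These pooled counts include the differences between tissues, of which only that of Gsta2 between muscle and fat lost its call, in 1 alternative. The genotype and age calls were therefore less stable than the pooled counts show. The Gsta3 call for genotype in liver was lost with slide as a random block, without wild-type replicate 2 of 8 weeks and in 1 fit over all arrays (adjusted p 0.00725 to 0.128 over the alternatives), and that in fat with the replicate block, the additive model, the same replicate left out and 1 fit over all arrays (0.0094 to 0.0736). Of 27 alternatives, Gstt1 lost its call in 8, Ugt3a1 in 14, Gstm6 in 15 and Gstt3 in 17. The muscle age calls of Ugt8a and Gsto1 held under all that could be run, that of Ugt8a at -1.34 to -0.39. The other Ugt8a probes were well above background on no muscle array, so no alternative drew on them.

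Liver genotype calls (5) became 16 with median scaling, 1 without the filter, 0 with the slide block and 3 with the additive model; liver age calls (10) became 18 with median scaling, 6 without the filter and 5 with the slide block, 3 by the methods' two-way test at an unadjusted 0.01 and 4 in 1 fit over all arrays. Liver interaction calls (0) became 2 by the methods' test and 1 in 1 fit over all arrays, which also gave 1 muscle genotype call and 1 fat interaction call in place of 0. Fat genotype calls (1) became 2 with normexp, 0 with the additive model and 4 by the methods' test. On genes well above background on all arrays the tissue counts of 36, 37 and 31 became 21, 21 and 19 of 21 tested. Genotype-by-tissue calls (3) became 0 without the filter and 0 with the slide block, and 2 without the 2 arrays with liver-type signal, a choice made after seeing the data; age-by-tissue calls (7) became 14 with median scaling.

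Leaving out 1 array gave 0 to 8 liver genotype calls, 3 to 10 liver age calls, 0 to 1 liver interaction calls, 5 to 9 muscle age calls, 0 to 3 fat genotype calls, 3 to 9 fat age calls, 0 to 1 fat interaction calls, 0 to 4 genotype-by-tissue calls and 5 to 10 age-by-tissue calls; muscle genotype stayed at 0. Samples with the same replicate number deviated together across the genotypes in all 12 pairs of 35 weeks (correlations 0.107 to 0.522) and in none of 8 weeks (-0.198 to 0.071). At 35 weeks samples of equal number also had the same position on their slides, while at 8 weeks none of the same-numbered samples did. Pairing of samples and position on the slide therefore cannot be told apart, and which of them the numbers carry was not tested. With the replicate number within age as a block (random for age, which lies between the blocks), calls were 3 (liver genotype), 6 (liver age), 5 (muscle age), 0 (fat genotype) and 4 (fat age).

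Limits are the 3 or 4 arrays per group, slides that at 35 weeks each held 1 genotype, and probes of related genes that may share signal. Second probes well above background on all 14 arrays of a tissue had the opposite sign in 9 of 25 age and 3 of 25 genotype comparisons, among them Gstm1 (muscle age, -0.09 against 0.18), Gstp1 (muscle age, -0.12 against 0.09), Ugt2b37 (liver age, 0.30 against -0.11), Mgst1 (liver age, 0.12 against -0.24; fat age, 0.39 against -0.02) and Gstm7 (fat genotype, -0.40 against 0.06; fat age, 0.23 against -0.34). A dim gene has only a bound across tissues.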
